A study of Homo sapiens with 12 samples.

Results

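TXNIP, DDIT4 and GLUL are 3 genes that respond to the supply of nutrients and energy, and their chromatin was examined for the EGFR chimera in B2B1 cells. They were chosen from earlier results on these same summit lists, as genes with a summit in every list, so their recurrence is a description and was not tested. They are 3 of the 62700 genes annotated in GENCODE, and they held 27 of the 2186 summits deposited in 4 lists. A summit is the position at which a ChIP-seq peak is highest. It was assigned to a gene when it lay inside the annotated limits of the gene or within 1000 bp of them.

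B2B1 is a single clone, obtained by serial transduction and cloning from MCF10A-5E, an immortalized human line of breast epithelium. It carries a chimera of the EGFR intracellular domain with a GluGlu tag and a chimera of the rat Erbb2 intracellular domain with an HA tag, and every library came from this clone. The minus AP group comprised 2 replicates of overlay cultures kept with 0.1% ethanol, called M1 and M2 here, and the plus AP group 2 replicates given 0.5 µM AP21967 (AP), which joins the chimeras into heterodimers, for the last 24 h before harvest on day 7, called P1 and P2. Whole-culture chromatin was immunoprecipitated with the GluGlu antibody. The labels call the replicates biological. Of the 12 libraries, the 8 from input and naive IgG were not used here, and the number of summits that a control immunoprecipitate would give at these genes is therefore not known from these values. Summit lists hold no RNA levels.

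TXNIP encodes an arrestin-domain protein that binds thioredoxin and restrains glucose uptake. Its transcription follows glucose through the factors MondoA and Mlx, which bind paired E-box elements called carbohydrate response elements. DDIT4, also known as REDD1, is induced by hypoxia, energy shortage and glucocorticoids, and it lowers mTORC1 activity by way of the TSC complex. GLUL encodes glutamine synthetase, the enzyme that joins glutamate and ammonia into glutamine. In MCF10A lines, as in other epithelial cells, growth factor signaling and nutrient supply both act on mTORC1.

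The DNA upstream of the first exon is shown for TXNIP and DDIT4, because summits of these genes lay at or next to it. Both runs are from GRCh38 and read 5′ to 3′ along the gene, and capitals mark matches to the paired E-box, CCAAT and FOXO motifs described after them. The TXNIP run covers chr1:145996580-145996829 on the minus strand and ends at the base before the transcription start. The DDIT4 run covers chr10:72273705-72273918 on the plus strand, and its last base is the summit of M2.
TXNIP upstream: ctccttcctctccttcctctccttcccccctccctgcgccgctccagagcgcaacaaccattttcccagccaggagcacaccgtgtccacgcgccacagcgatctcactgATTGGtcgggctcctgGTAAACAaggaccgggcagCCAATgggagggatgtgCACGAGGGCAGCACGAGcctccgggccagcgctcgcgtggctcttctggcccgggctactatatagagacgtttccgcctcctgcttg
DDIT4 upstream: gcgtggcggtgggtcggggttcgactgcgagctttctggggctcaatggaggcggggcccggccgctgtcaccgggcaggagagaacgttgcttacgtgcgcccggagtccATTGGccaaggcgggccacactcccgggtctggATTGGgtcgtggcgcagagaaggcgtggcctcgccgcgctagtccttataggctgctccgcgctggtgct
Motifs were searched on both strands in the RefSeq promoters of GRCh38, which run from 250 bases before to 50 bases after a start, and all 3 genes were matched by symbol. The paired E-box elements, written CACGNGNNNNNCNCGNG, occurred once at TXNIP, 88 to 72 bp before the start, and in 0.659% of the 21548 promoters of protein-coding genes. The FOXO motif TGTTTAC occurred once at TXNIP, on the reverse strand 124 to 118 bp before the start, and in 2.87% of promoters. The CCAAT box had 2 matches each at TXNIP, DDIT4 and the canonical GLUL start, and 34.8% of promoters held it. The short AT-rich motif TNTTT overlapped the FOXO match and is not marked in capitals. It had 3 matches at TXNIP, 0 at DDIT4 and 4 at the canonical GLUL start, and 68.8% of promoters held at least 1. None of the 3 canonical promoters held the E-box CACGTG (8.35% of promoters), the TATA box TATAAA (9.44%), the AP-1 site TGANTCA (6.17%), the cyclic AMP response element TGACGTCA (2.29%), the amino acid response core TGATGNAA (2.71%) or the STAT site TTCNNNGAA (6.79%). Only these exact letters were searched, and variants of a site were not counted. The TXNIP run holds the letters tatatag near its end, which TATAAA does not match. A match describes the letters of the reference and is not a measured binding site.

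The lists differed in length and make-up. They held 739 summits (M1), 56 (M2), 1094 (P1) and 297 (P2). Of these, 144, 55, 205 and 283 lay within 1000 bp of an annotated gene on chromosomes 1 to 22 and X, so that most of each replicate 1 list lay elsewhere. The score of a summit is the authors' −log10 of the q-value, which depends on sequencing depth. Scores were therefore used only to rank summits within a list, with rank 1 the highest. Depth is unknown, since the lists give no read numbers, and a gene without a summit may still have had signal too low to detect in that library.

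Few genes had a summit in any list. A summit lay at 0.175% of the 19970 protein-coding genes in M1, 0.16% in M2, 0.32% in P1 and 1.13% in P2. Both minus AP lists had a summit at 0.0901% of these genes, and both plus AP lists at 0.18%. All 4 lists had a summit at 16 protein-coding genes (0.0801%), and TXNIP, DDIT4 and GLUL were 3 of these by the way they were chosen. Together they took 6 summits (0.812% of the list) in M1, 7 (12.5%) in M2, 6 (0.548%) in P1 and 8 (2.69%) in P2. The mean number was 6.5 ± 0.707 in minus AP and 7 ± 1.41 in plus AP (SD, n = 2 each), a difference smaller than the spread between the plus AP replicates.

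**Figure D1:**
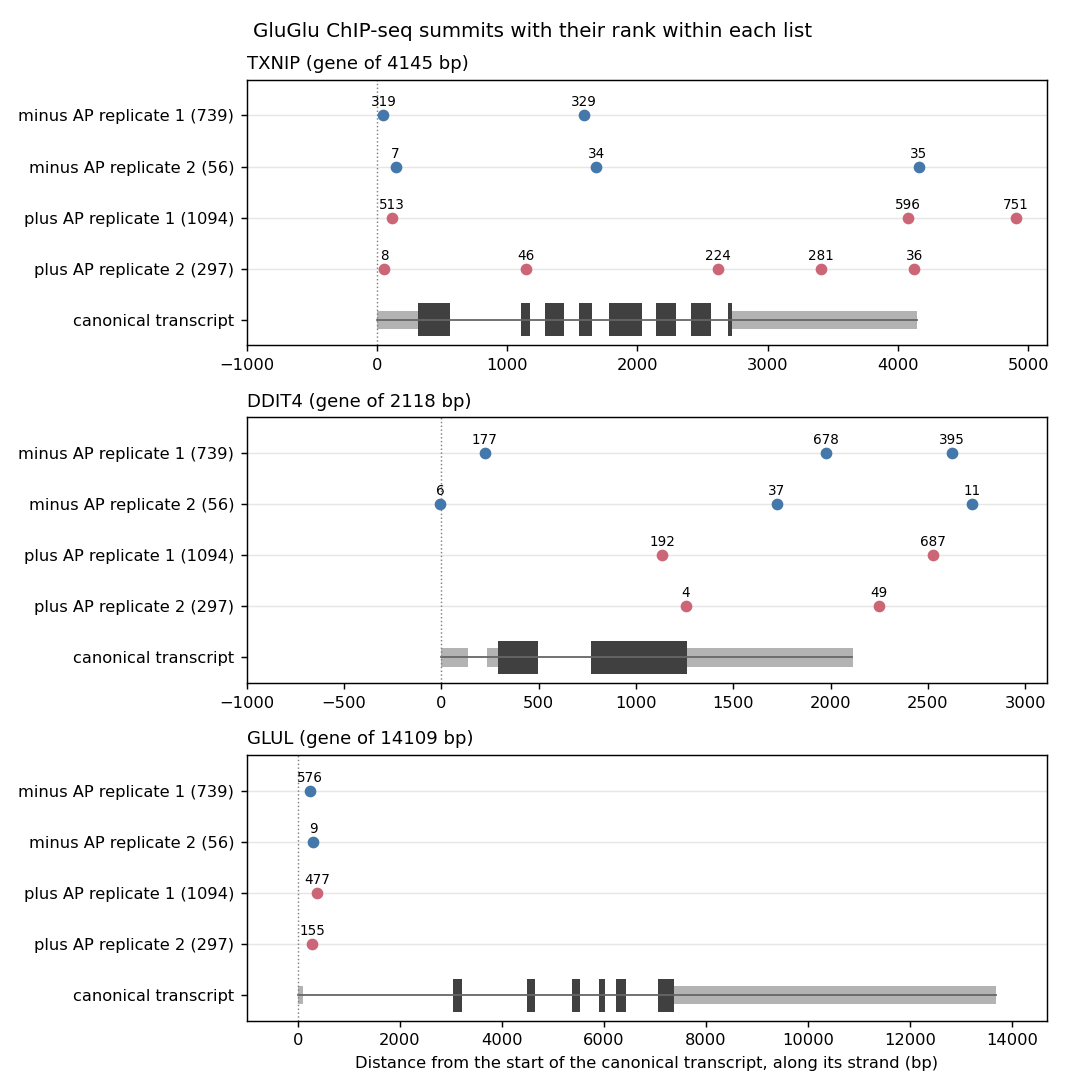
Summits of the 4 lists (rows, with the length of each list in parentheses) along TXNIP, DDIT4 and GLUL; the x axis is the distance (bp) from the canonical transcript start, each point is 1 summit (blue minus AP, red plus AP), and the number above it is its rank in the list. In the transcript row, light boxes are untranslated exon sequence and dark boxes coding sequence. Pooled over the 4 lists, but not in each list, TXNIP and DDIT4 had summits from start to end, whereas the 4 GLUL summits sat between 238 and 375 bp.

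TXNIP spans chr1:145992435-145996579 of GRCh38 and is read from the minus strand, and its canonical transcript has 8 exons. It had 2 summits in M1, 3 in M2, 3 in P1 and 5 in P2. The mean was 2.5 ± 0.707 in minus AP and 4 ± 1.41 in plus AP (SD, n = 2 each). The P2 list had the most, and P1 matched M2, so the conditions overlapped. Within each replicate number the plus AP list, which was the longer one in both, held more TXNIP summits.

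The highest-ranked TXNIP summit of every list lay in the 5′ untranslated part of exon 1. It lay 50 bp (M1), 143 bp (M2), 113 bp (P1) and 57 bp (P2) downstream of the start. These 4 positions spanned 93 bp, and the smallest distance between lists was 7 bp, between M1 and P2. Both conditions thus had 1 summit nearer to the start and 1 farther from it, so their positions overlapped.

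The ranks of this start summit differed by replicate number. It ranked 319 of 739 in M1, 7 of 56 in M2, 513 of 1094 in P1 and 8 of 297 in P2. As a percent of the list, the rank was 43.2 and 12.5% without AP and 46.9 and 2.69% with AP. Both replicate 2 lists placed TXNIP near the top, and both replicate 1 lists near the middle. Among summits within 1000 bp of a gene alone, the ranks were 43 of 144, 7 of 55, 79 of 205 and 8 of 283 in the same order, so the replicate 1 lists kept the lower placement.

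The other TXNIP summits ran along the gene body. M1 had 1 at 1592 bp in coding exon 4, and M2 had 1 at 1685 bp in intron 4, 93 bp away. P2 had summits at 1147 bp in coding exon 2, 2618 bp in intron 7 and 3407 bp in the 3′ untranslated part of exon 8. P1 had no summit between 113 and 4075 bp.

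A further group of TXNIP summits lay at the 3′ end of the gene. It held a summit 16 bp past the end of the transcript in M2, 69 bp before the end in P1 and 18 bp before the end in P2. Its ranks were 35 of 56, 596 of 1094 and 36 of 297. M1 had none there, and P1 had another 762 bp past the end, the TXNIP summit nearest to the 1000-bp limit. The nearest summit of any list outside that limit lay 55482 bp from the gene, in P2.

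Of the 13 TXNIP summits, 9 lay in exons, 2 in introns and 2 past the end, while exons made up 70.1% of the canonical transcript. All 13 had a summit of another list within 1000 bp, 10 within 500 bp and 9 within 200 bp. The 13 summits lay between 50 and 4906 bp from the start, so partners within 1000 bp were likely wherever they fell. Only 4 of the 13 (30.8%) were within 500 bp of the canonical start. Counting the nearest start of any GENCODE transcript of the gene, 61.5% were, since shorter transcripts start 816, 1325 and 2363 bp into the gene.

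DDIT4 spans chr10:72273919-72276036, is read from the plus strand and has 3 exons in its canonical transcript, which starts at 72273924. It had 3 summits in each minus AP list and 2 in each plus AP list. The numbers were the same in both replicates of a condition, and they differed between the conditions by 1 summit. The antisense lncRNA gene ENSG00000289506 was the only other gene that reached into the extended limits of the 3 genes, and no summit lay inside it.

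The highest-ranked DDIT4 summit lay at the start of the gene without AP and in coding sequence with AP. It was 223 bp downstream of the start in M1, in intron 1, and 6 bp upstream of it in M2. It was 1135 bp downstream in P1 and 1257 bp downstream in P2, both in the coding part of exon 3. The mean distance was 108.5 ± 161.9 bp in minus AP and 1196 ± 86.3 bp in plus AP (SD, n = 2 each). The conditions did not overlap, and 912 bp separated them. No plus AP list had a DDIT4 summit within 500 bp of the start, and no minus AP list had one between 223 and 1724 bp. The M2 summit at the start lay 1 bp outside the annotated gene, and within the unextended gene the highest-ranked M2 summit was at 1724 bp, so that the conditions then overlapped. The difference was not tested, because the same summits had served to choose the gene.

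The coding DNA around the plus AP summits is shown because summits there were found with AP and not without it. Both runs are from chromosome 10 of GRCh38, plus strand, and the capital is the summit base. The first covers chr10:72275034-72275084 and the second chr10:72275156-72275185, which ends with the last base of coding sequence before the stop codon.
DDIT4 plus AP replicate 1: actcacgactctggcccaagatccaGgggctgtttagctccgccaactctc
DDIT4 plus AP replicate 2: agctcggaacagctgctcattgaggAgtgt
The summits lay 122 bp apart.

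The same comparison was made for the 16 protein-coding genes with a summit in all 4 lists. The highest-ranked summit lay farther along the gene in both plus AP lists than in both minus AP lists for 3 of them (18.8%), DDIT4, RCC1 and HOOK2, and farther along in both minus AP lists for 1 (6.25%), JUNB. The summits counted for HOOK2 were those of JUNB, which lies within the limits of HOOK2 on the other strand. They lay upstream of the canonical HOOK2 start, at -18081 to -16120 bp, so this locus was counted once in each direction. TXNIP and GLUL were in neither group. RCC1, HOOK2 and JUNB are named here because of these values. A summit is a single point of a peak, and the widths of the peaks were not analysed here.

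With the 1000-bp extension, DDIT4 ranked above TXNIP and GLUL in every list. Without it, DDIT4 ranked 37 of 56 in M2, below TXNIP at 7 and GLUL at 9, and its mean rank over the 4 lists was 27.2% against 26.3% for TXNIP. Its extended-gene highest rank was 177 of 739 in M1, 6 of 56 in M2, 192 of 1094 in P1 and 4 of 297 in P2. As a percent of the list, this was 24.0 and 10.7% without AP and 17.6 and 1.35% with AP. The mean was 17.3 ± 9.36% in minus AP and 9.45 ± 11.5% in plus AP (SD, n = 2 each), and the difference was smaller than the spread between the plus AP replicates. Within both replicate numbers DDIT4 was nearer the top with AP, as were 50% of the 16 protein-coding genes with a summit in all 4 lists. That share counts both HOOK2 and JUNB, which have the same summits, and likewise both CEBPD and SPIDR. Among summits within 1000 bp of a gene, DDIT4 ranked 17 of 144, 6 of 55, 15 of 205 and 4 of 283.

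Each list also had a DDIT4 summit past the end of the gene. It lay 512 and 616 bp past the end in M1 and M2, and 415 and 137 bp past it in P1 and P2. Its ranks were 395 of 739, 11 of 56, 687 of 1094 and 49 of 297. M1 and M2 had a further summit in the 3′ untranslated part of exon 3, 137 and 388 bp before the end, at ranks 678 and 37. The limit of the gene mattered here. Without the 1000-bp extension the mean number of DDIT4 summits per list fell from 2.5 to 1.25, since the summits past the end and the start summit of M2, at 72273918 just before the annotated gene, were then left out.

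Of the 10 DDIT4 summits, 4 lay in exons, 1 in an intron, 1 upstream of the start and 4 past the end. All 10 had a summit of another list within 1000 bp and within 500 bp, and 5 had one within 200 bp. The 10 summits lay between -6 and 2728 bp from the start, so partners at the wider distances were likely wherever they fell. The nearest summit of any list outside the limits lay 15586692 bp away, in P2.

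**Figure D2:**
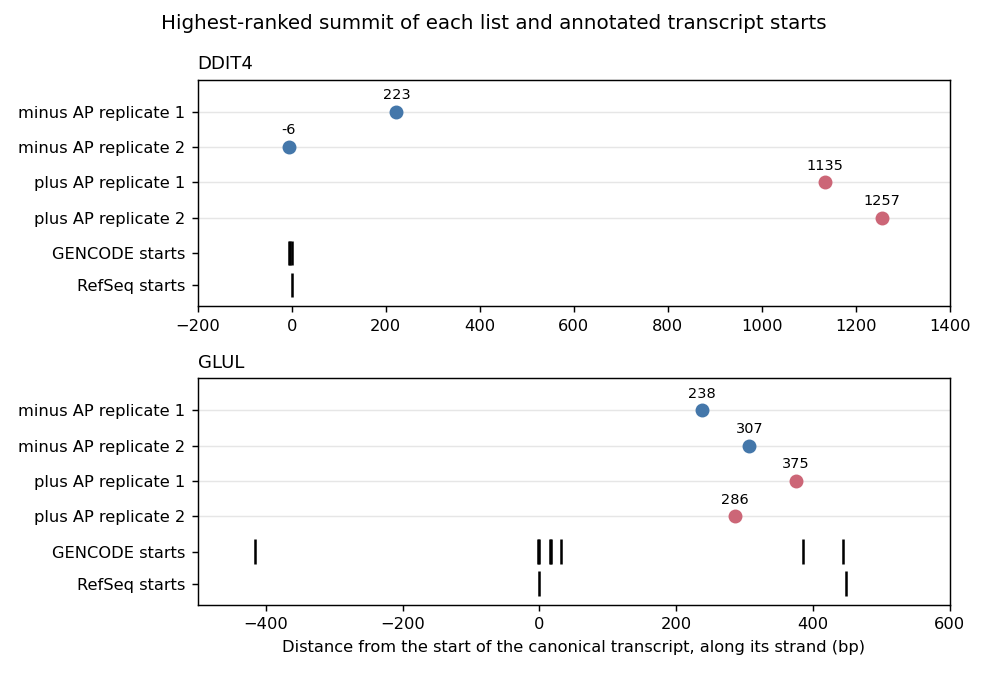
Distance (bp, x axis) of the highest-ranked summit from the canonical transcript start in each list for DDIT4 and GLUL, with blue points for minus AP and red points for plus AP and black ticks for the annotated transcript starts of GENCODE and RefSeq. The DDIT4 points lie at −6 and 223 bp without AP and at 1135 and 1257 bp with AP, and the GLUL points lie between the canonical start and later starts.

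GLUL spans chr1:182378098-182392206 of GRCh38 and is read from the minus strand, and its canonical transcript has 7 exons and starts at 182391790. Each list had exactly 1 GLUL summit, and all 4 fell in intron 1 of the canonical transcript. It lay 238 bp (M1), 307 bp (M2), 375 bp (P1) and 286 bp (P2) downstream of the start. The mean was 272.5 ± 48.8 bp in minus AP and 330.5 ± 62.9 bp in plus AP (SD, n = 2 each). The 4 positions spanned 137 bp, and the conditions overlapped. Without P1 the span was 69 bp.

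The GLUL summits were nearer to a later transcript start than to the canonical one. They lay 148, 79, 11 and 100 bp upstream of the GENCODE start at 182391404, in the order M1, M2, P1 and P2. They lay 211, 142, 74 and 163 bp upstream of the RefSeq start at 182391341. Other GLUL transcripts in GENCODE carry an exon across this stretch, so intron 1 holds only for the canonical transcript. No list had a summit elsewhere in GLUL or at its 3′ end. This differed from DDIT4, with a summit past the end in each list, and from TXNIP, with 1 within 69 bp of the end in 3 of 4 lists.

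The bases around each GLUL summit are shown because the gene had no other summit. Each run is 29 bases of GRCh38 from the minus strand of chromosome 1, and the capital marks the summit base. They cover chr1:182391538-182391566, chr1:182391469-182391497, chr1:182391401-182391429 and chr1:182391490-182391518 in the order shown.
GLUL minus AP replicate 1: ctacgctgcggcctCtccggcccatgcct
GLUL minus AP replicate 2: tggtggcttggaccCgtcggggctggcgc
GLUL plus AP replicate 1: ggtgagttgttttgAtcttcttttcacta
GLUL plus AP replicate 2: cctcccgcgtgcttCcgccgctggtggct
The P1 run was the poorest in G and C (34.5%), and the other 3 held between 72.4 and 75.9%.

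The rank of the GLUL summit varied more than its position. It was 576 of 739 in M1, 9 of 56 in M2, 477 of 1094 in P1 and 155 of 297 in P2. As a percent of the list, this was 77.9 and 16.1% without AP and 43.6 and 52.2% with AP. The mean was 47.0 ± 43.7% in minus AP and 47.9 ± 6.07% in plus AP (SD, n = 2 each). The replicates without AP were therefore farther apart than the conditions. GLUL ranked last of the 3 genes in 3 lists and above TXNIP in P1.

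**Figure D3:**
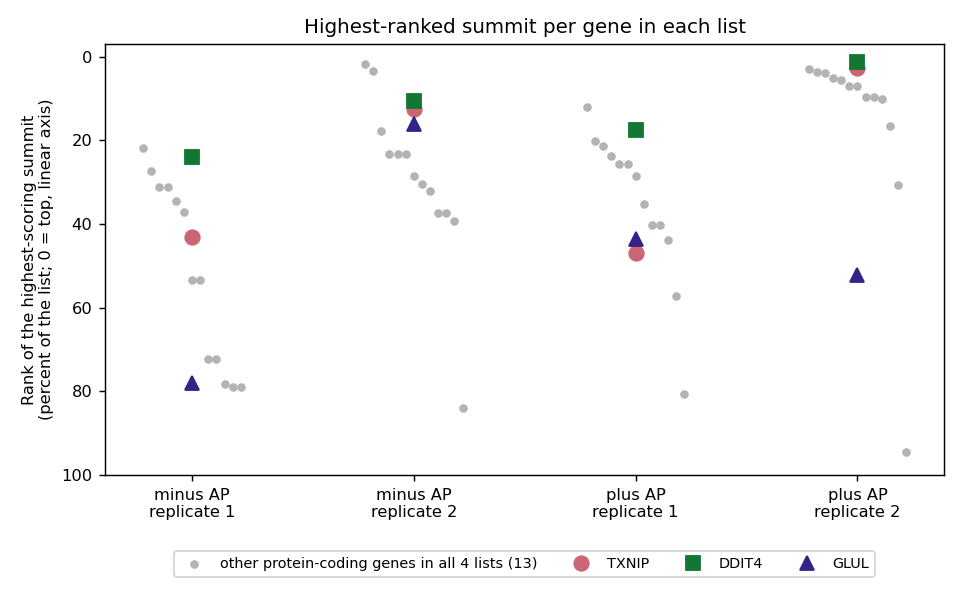
Rank of the highest-scoring summit of a gene as a percent of the list (y axis, linear, top of the list at the top) in each of the 4 lists (x axis) for TXNIP (circles), DDIT4 (squares), GLUL (triangles) and the 13 other protein-coding genes with a summit in all 4 lists (grey points). With genes extended by 1000 bp, as plotted, DDIT4 sits above TXNIP and GLUL in every list, at 24.0, 10.7, 17.6 and 1.35%, and without the extension it falls below both in M2.

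Set among the 16 protein-coding genes with a summit in all 4 lists, with genes extended by 1000 bp, DDIT4 had the second-highest mean placement. Its mean rank was 13.4% of the list over the 4 lists, against a median of 27.5% and a range of 10.2 to 73.7% for the 16 genes. Without the extension the DDIT4 mean was 27.2%. TXNIP, at 26.3%, was 8 of 16, and GLUL, at 47.5%, was 14 of 16. TXNIP had 13 summits in all, DDIT4 10 and GLUL 4, against a median of 9.5. Per kb of the extended gene, DDIT4 had 2.43, TXNIP 2.12 and GLUL 0.248 summits, against a median of 0.959. HOOK2 and JUNB have the same summits here, as do CEBPD and SPIDR. The medians and placements count each of these genes, so the 16 genes are not 16 separate places.

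The genes whose placement was most like that of each member were found by the Euclidean distance over the 4 rank percentages, among the 16 genes. For TXNIP they were RCC1 (distance 21.95), DUSP1 (22.96) and HOOK2 (27.4), and JUNB, which has the same summits as HOOK2, was as near. For DDIT4 they included WDR74 (11.3) and KRT5 (15.5). The WDR74 summit of each list lay upstream of its canonical start, at -2142 to -1974 bp. For GLUL they were SOD2 (46.0), NFKBIA (49.2) and CEBPD (50.1), each farther away than any gene named for TXNIP or DDIT4. SPIDR, which has the summits of CEBPD within its limits, was as near as CEBPD. These distances rest on 4 lists.

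The DNA under the summits had no base composition common to the 3 genes. Within 150 bp of a summit, the share of G and C ranged from 33.9 to 46.2% at TXNIP (median 38.9%, 13 windows), from 45.8 to 66.4% at DDIT4 (median 54.7%, 10 windows) and from 68.8 to 71.4% at GLUL (median 70.9%, 4 windows). The ranges of TXNIP and GLUL did not meet. The median was 53.2% for the 421 windows of other summits within 1000 bp of protein-coding genes. Windows at neighbouring summits overlap and are not independent. The paired E-box elements were in 2 TXNIP windows, those of the start summits of M1 and P2, and in 0.238% of the other windows. The short motif TNTTT was in all 13 TXNIP windows, 8 of 10 DDIT4 windows and all 4 GLUL windows, and in 79.6% of the others. The DDIT4 windows without it were those of the highest-ranked minus AP summits. The STAT site TTCNNNGAA was in 6 TXNIP windows. Of these, 4 overlapped at the start of the gene, and those of M1 at 1592 bp and M2 at 1685 bp overlapped each other. It was in no DDIT4 or GLUL window, and in 5.94% of the others. No 75-base sequence within 250 bp of any of the 27 summits occurred a further time in the reference genome.

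Other genes of the same pathways were also looked up. Of 63 such genes in 7 lists, 6 had a summit in any library, and none had a summit in more than 1 library. Recurrence was rare for any gene. Both minus AP libraries had a summit at 0.0901% of protein-coding genes, both plus AP libraries at 0.18%, and all 4 at 0.0801%. At such shares no recurrence would be expected among 63 genes, so its absence does not set these genes apart. In M1 there was 1 such gene (1.59%, against 0.175% of all protein-coding genes), and in M2 there were 0 (against 0.16%). In P1 there were 2 (3.17%, against 0.32%), and in P2 there were 3 (4.76%, against 1.13%). These shares rest on at most 3 genes a list and were not tested. No summit lay at the 9 thioredoxin partners and arrestin-domain relatives of TXNIP, which included TXN and ARRDC4, another target of MondoA. None lay at the 10 genes of glucose sensing and uptake, such as MLXIP, which encodes MondoA, or at the 10 regulators of mTORC1, such as TSC1, TSC2 and DDIT4L. Groups of 9 or 10 genes would mostly hold none at the shares of all protein-coding genes.

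The 10 genes of glutamine and amino acid metabolism held 3 of the 6, all in P2, which is 30% of that group against 1.13% of all protein-coding genes. P2 was also the list with the most protein-coding genes with a summit, 225 against 32 to 64 in the others. SLC38A2, which carries glutamine into cells, had 2 summits, 83 and 1834 bp downstream of its canonical start, at ranks 37 and 91 of 297. SLC1A5, another glutamine carrier, had 1 at 509 bp and rank 129, which also lay inside the gene ENSG00000275719. The SLC3A2 summit, at rank 88, lay 25065 bp upstream of its canonical start and inside the neighbouring noncoding RNA gene SNHG1, in the 1000-bp extension of SLC3A2. SLC3A2 encodes a chain of amino acid exchangers. The SLC38A2 summit near the start also lay inside SLC38A2-AS1.

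The remaining lists each had 1 gene with a summit. ATF4, the transcription factor of the integrated stress response, had 1 at 2290 bp in P1, at rank 1071 of 1094. SQSTM1, an autophagy receptor, had 1 at 73 bp in P1, at rank 655. FOXO1, a forkhead factor that insulin signaling holds out of the nucleus, had 1 at 1565 bp in M1, at rank 705 of 739. The lists with these genes held 8 genes of the integrated stress response, 10 of hypoxia and oxidative stress and 6 of FOXO and growth arrest.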

How the data were processed

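ChIP-seq summits of the EGFR chimera were taken from the 4 GluGlu libraries of 12, and the other 8 were not analysed here. Per the labels and methods, the authors used Bowtie2 2.2.9 to align read pairs of 75 bp to GRCh38, removed duplicates and reads that did not map uniquely, and ran MACS2 2.2.7.1 with its defaults on each library against input, although their results text refers to naive IgG, so which control a summit exceeds is uncertain. The authors deposited a score for each summit, in units of −log10 of the MACS2 q-value. No read numbers are given, so depth is unknown and no interval could be given.

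Genes and transcripts came from GENCODE 44 (Ensembl 110) on GRCh38, and distances run from the start of the Ensembl canonical transcript. Ties took the same rank. Gene assignment was tested on simulated data. Python 3.11.15, numpy 2.4.6, pandas 2.3.3, pysam 0.24.0, numba 0.67.0 and matplotlib 3.10.9 were used. Copies of 75-base sequences were sought in either orientation in the reference, alternate haplotypes excluded.

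The members, gene lists and alternatives were chosen with earlier results of these data known. Named genes were the members, genes overlapping their extended limits, listed pathway genes with a summit, and the 3 genes nearest to each member in rank, of which 1 is not reported here. Genes sharing a summit with these, and examples of listed genes without one, were named after their values were seen. No statistical test was made.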

Additional observations from a re-analysis of the deposited data

How the results depend on the processing

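Alternatives changed the extension of the genes (none or 5000 bp), the definition of a start, the length of the lists, the minimum score (2), the chromosomes, the merging of neighbouring summits, the limits of the genes and the libraries used. Of 77 values so obtained without leaving out a library, 67 moved by less than the spread between libraries, or, for numbers of libraries, by less than 1.5 times. Some of these values could not move. The nearest summit outside the limits of the 3 genes lay 55482 bp away, so the 5000-bp extension added none. GLUL had 1 summit per list and so none to merge. Ranking only summits near genes was added after seeing the data. With every list limited to the length of the shortest (56 summits), the mean number of summits per list was 1.5 for TXNIP, 1.25 for DDIT4 and 0.25 for GLUL, in place of 3.25, 2.5 and 1. The libraries with a summit numbered 2 for TXNIP, 2 for DDIT4 and 1 for GLUL, in place of 4 each. The replicate 1 summits of these genes all ranked below 56, as did the GLUL summit of plus AP replicate 2, at 155 of 297. The mean rank of GLUL was then 16.1% of the list in place of 47.5%, from minus AP replicate 2 alone. With the genes not extended, DDIT4 had a mean of 1.25 summits per list and a mean rank of 27.2% in place of 13.4%, because the start summit of minus AP replicate 2 and all summits past the end lay outside. With any annotated start, 61.5% of TXNIP summits lay within 500 bp of a start in place of 30.8%. Leaving out 1 library at a time gave 60 values, 59 of which counted as unmoved. For numbers of libraries, which went from 4 to 3, this was fixed in advance, since each gene was chosen for a summit in every list. The other unmoved values changed by less than that spread. The span of the GLUL summits ranged from 69 to 137 bp. No paired analysis was possible because no result came from a test, and values within a replicate number were only described. Depth is unknown, and a missing summit is not evidence of absence.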
